A study of Homo sapiens with 12 samples.

Results

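The response of unstimulated human salivary cells to 2-CM, an adenosine analogue that the series' design text names 2-C'-Methyladenosine, was examined in 4 of the 12 libraries of the series.
The 2 libraries of the group 2-CM depc were set against the 2 of DMSO depc, and every gene with a transcripts-per-million value (TPM) of 1 or more in at least 2 of these 4 libraries was described, which gave 14583 genes of 60609.
All cells were NS-SV-AC, an immortalised human line of salivary gland acinar origin that is cultured without other cell types, grown for 48 h.
Both groups received the control transfection called depc in the labels, without poly I:C, which imitates double-stranded RNA and was used for 14 h in the other transfection.
The compound was given at a labelled dose of 20, read here as micromolar, 24 h before the transfection and again together with it, and DMSO cells received the same volume of the solvent.
The remaining groups, DMSO and 2-CM with poly I:C and RES (resveratrol) with either transfection, serve below for comparison and, in the fit over all 12 libraries, for the estimate of the spread behind each SE and p-value.
Nothing in the labels says that replicates came from separate cultures, so p-values measure only the spread between these samples.

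The mitochondrial genome is a small circle that encodes 13 mRNAs, 2 rRNAs and 22 tRNAs.
A single-subunit polymerase, POLRMT, starts in the non-coding control region and copies each strand into long precursors, from which the tRNAs are cut out to free the mRNAs and rRNAs that lie between them.
All mRNAs but MT-ND6 are read from the heavy-strand promoter.
Ribonucleosides with a methyl group at this sugar position act, as their triphosphates, as substrates that stop POLRMT after they are built in, and 2-CM is used in this way to lower mitochondrial RNA, including mitochondrial double-stranded RNA.
The proteins made from the mitochondrial mRNAs are core subunits of respiratory complexes I, III and IV and of the ATP synthase.

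Sequences of the mitochondrial genome (GRCh38, plus strand of the annotation, read 5' to 3') are shown where the direction or the reading of a result turns on the position. The first runs from the control region into MT-TF, the tRNA for phenylalanine and the first gene after the heavy-strand promoter, with the 71 bases of MT-TF in capitals, at chrM:348-647.
Control region and MT-TF: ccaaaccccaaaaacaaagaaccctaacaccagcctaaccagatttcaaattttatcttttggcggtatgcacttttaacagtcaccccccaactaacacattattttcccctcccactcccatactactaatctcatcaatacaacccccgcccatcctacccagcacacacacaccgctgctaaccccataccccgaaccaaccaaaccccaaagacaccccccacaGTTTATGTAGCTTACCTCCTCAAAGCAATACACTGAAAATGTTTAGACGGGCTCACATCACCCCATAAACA
The second covers chrM:3200-3336, where MT-RNR2, the large rRNA, ends and MT-ND1, the first mRNA, begins, with the 75 bases of the intervening MT-TL1 (the tRNA for leucine) in capitals. The rRNAs to its left stood higher with 2-CM and the mRNAs to its right lower.
MT-RNR2 to MT-ND1: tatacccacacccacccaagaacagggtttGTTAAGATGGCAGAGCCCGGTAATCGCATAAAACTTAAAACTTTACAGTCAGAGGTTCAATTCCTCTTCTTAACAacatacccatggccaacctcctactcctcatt
The last, chrM:8507-8592, holds the 46 bases that MT-ATP8 and MT-ATP6 share, in capitals. Reads from these bases belong to both genes, so their values are not independent.
MT-ATP8 and MT-ATP6: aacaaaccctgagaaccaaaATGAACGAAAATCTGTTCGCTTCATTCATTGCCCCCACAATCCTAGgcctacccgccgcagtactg

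No gene passed an adjusted p of 0.05 in limma (0 of 14583 genes, 0%), and limma with voom on estimated reads called 0 as well.
The lowest adjusted p was 0.0601.
An unadjusted p under 0.05 was reached by 763 genes (5.23%), of which 415 (2.85%) stood higher with 2-CM and 348 (2.39%) lower.
In 3676 genes (25.2%) both 2-CM libraries lay above both DMSO libraries, and in 4701 (32.2%) both lay below.
The median log2 fold change, taken on log2(TPM + 1) here and below, which understates the change of low genes, was -0.10, with the 10th percentile at -0.77 and the 90th at 0.39.
Of the 20 genes with the lowest p-values, 10 were on the mitochondrial genome.
The 4 libraries held 4.74 to 6.002 gigabases of aligned sequence, and 39.7 to 49.4 M estimated reads.
The replicates of a group had a median SD of 0.213 on the log2 scale for DMSO and 0.170 for 2-CM.

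Differences between libraries followed the GC content of the genes, and this bears on everything below.
The median difference between 2-CM and DMSO ran from -0.71 in the 10% of genes with the lowest exonic GC content to 0.31 in the highest 10%, with a Spearman correlation of 0.74 across genes.
Replicates differed in the same way, with correlations of -0.73 between the DMSO libraries and -0.60 between the 2-CM libraries (replicate 1 minus 2).
With poly I:C the tilt of the compound's effect had the other sign, with medians of 1.33 and 0.22 at the ends and a correlation of -0.64.
Values after GC adjustment, in which each library's smooth trend over GC content was subtracted, are therefore given for the mitochondrial genes, most of the gene lists and the classes of long genes. They are given for only some of the other genes named.
After GC adjustment 27 genes were called (0.185%), 25 lower and 2 higher.

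**Figure D1:**
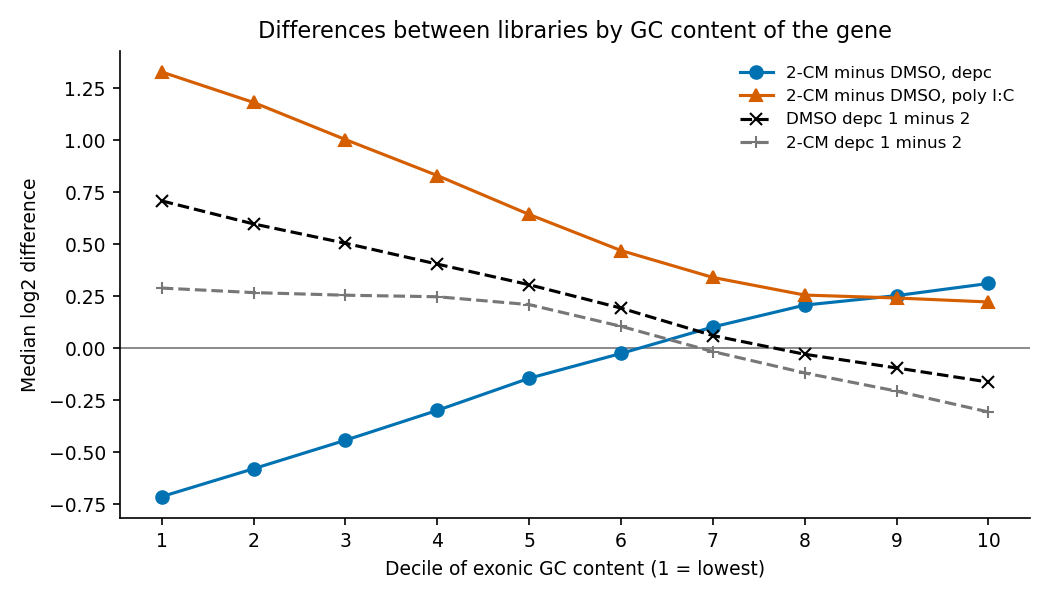
The median log2 difference (vertical axis) in 10 equal bins of genes by exonic GC content (horizontal axis, lowest to highest) is drawn for 2-CM minus DMSO without and with poly I:C and for replicate 1 minus 2 within DMSO depc and 2-CM depc. The effect of 2-CM without poly I:C climbed from -0.71 to 0.31, whereas the effect with poly I:C and both replicate differences declined.

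At the start of the heavy-strand transcript MT-TF and both rRNAs stood higher with 2-CM.
MT-TF, the tRNA for phenylalanine, was at 153 and 179 TPM in the DMSO libraries and 515 and 466 in the 2-CM libraries, 2.96 times as high on average.
Both 2-CM libraries lay above both DMSO libraries by several times the distance between replicates, with a log2 fold change of 1.56 (SE 0.178, limma adjusted p = 0.0601), 2.11 after GC adjustment.
It was one of 4 genes called when only the 4 libraries were fitted (adjusted p = 0.0482).
At 71 bases the gene is shorter than a read of 101 bases and polyadenylated RNA was sequenced, so its reads cannot be told apart from those of longer or unprocessed RNAs.
MT-RNR1, the small rRNA next to it, was at 2877 and 2763 TPM in the DMSO libraries and 5624 and 5729 in the 2-CM libraries.
The 2-CM values were 2.01 times as high, with hardly any spread between replicates, a log2 fold change of 1.01 (SE 0.188, limma adjusted p = 0.388), 1.30 after GC adjustment. MT-RNR2, the large rRNA, was at 16835 and 15942 TPM in the DMSO libraries and 22778 and 22474 in the 2-CM libraries, and its log2 fold change was smaller, 0.47 (SE 0.198, limma adjusted p = 0.693), and 0.91 after GC adjustment.
Both rRNAs kept 2-CM above DMSO in every library, before and after GC adjustment, where the background for higher genes was 25.2% and 27.2%. Since polyadenylated RNA was sequenced, a change in rRNA level cannot be told apart from a change in its polyadenylated part.
MT-TL1, the tRNA that separates MT-RNR2 from MT-ND1 in the sequence above, was at 1446 and 1365 TPM in the DMSO libraries and 1036 and 1116 in the 2-CM libraries, a log2 fold change of -0.38, and 0.27 after GC adjustment.
MT-TV, the tRNA for valine that lies between the rRNAs, was at 253 and 220 TPM in the DMSO libraries and 186 and 191 in the 2-CM libraries, lower in both, with a log2 fold change of -0.32, and 0.16 after GC adjustment.

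All 13 mitochondrial mRNAs stood lower with 2-CM, and in all 13 both 2-CM libraries lay below both DMSO libraries, against 32.2% of all genes.
Of the 13, 8 reached an unadjusted p under 0.05, where 2.39% of all genes did so and stood lower, and none the adjusted threshold, and the median log2 fold change was -0.58, with a range from -1.19 to -0.20, where the median of all genes was -0.10.
After GC adjustment the median was -0.22, 11 of 13 were below 0, and in 5 of 13 the groups did not overlap, against 25.6% of all genes.
The GC content of these mRNAs, 39.6% to 47.7%, lies in the part of the range where genes in general stood lower with 2-CM.

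The widest difference was that of MT-CYB, the mitochondrial subunit of complex III and the last mRNA of the heavy-strand transcript.
MT-CYB was at 9751 and 9735 TPM in the DMSO libraries and 4394 and 4134 in the 2-CM libraries, 2.28 times lower on average.
The DMSO libraries were almost equal and the groups were far apart, with a log2 fold change of -1.19 (SE 0.121, limma adjusted p = 0.0601), -0.95 after GC adjustment.
The complex IV subunits, which form the core of cytochrome c oxidase, differed among themselves.
MT-CO1 was at 23996 and 26215 TPM in the DMSO libraries and 19381 and 21762 in the 2-CM libraries, a log2 fold change of -0.29 (SE 0.140), and -0.04 after GC adjustment.
MT-CO2, the most abundant of the 13, was at 65937 and 68284 TPM in the DMSO libraries and 58172 and 54612 in the 2-CM libraries, or -0.25 (SE 0.166), and -0.00059 after GC adjustment.
MT-CO3 was at 35744 and 38688 TPM in the DMSO libraries and 20308 and 20810.5 in the 2-CM libraries, or -0.86 (SE 0.138), and -0.62 after GC adjustment.
The groups did not overlap in any of these subunits, and MT-CO3 had the widest gap, which alone of the 3 stayed free of overlap after GC adjustment. The neighbours of MT-CO3 resembled it.
MT-ATP8, a small subunit of the ATP synthase, was at 18600.5 and 18775 TPM in the DMSO libraries and 10143 and 9066 in the 2-CM libraries, a log2 fold change of -0.96 (SE 0.127, limma adjusted p = 0.0935), -0.35 after GC adjustment.
MT-ATP6, the subunit that forms the proton channel of that enzyme, was at 27505 and 29252 TPM in the DMSO libraries and 14577 and 13653 in the 2-CM libraries, or -1.01 (SE 0.142, limma adjusted p = 0.115), -0.64 after GC adjustment.
The pair shares the bases shown above.

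The complex I subunits, which belong to the NADH dehydrogenase, spanned nearly the whole range.
MT-ND3 was at 6223 and 6675 TPM in the DMSO libraries and 3042 and 2975 in the 2-CM libraries, a log2 fold change of -1.10 (SE 0.147, limma adjusted p = 0.0935), -0.52 after GC adjustment.
MT-ND2 was at 8746 and 8758 TPM in the DMSO libraries and 4817 and 4672 in the 2-CM libraries, or -0.88 (SE 0.112, limma adjusted p = 0.0931), -0.45 after GC adjustment.
In both, replicates nearly coincided and the groups lay far apart. MT-ND4 and MT-ND4L, read from a common mRNA, were at 18951 and 19077 against 13072 and 12409.8 TPM and at 13045 and 12970.5 against 9337 and 9138 TPM, with log2 fold changes of -0.58 and -0.49, and -0.22 and -0.06 after GC adjustment.
MT-ND1, the first mRNA after the rRNAs, was at 8437 and 8861 TPM in the DMSO libraries and 7507 and 7555 in the 2-CM libraries, or -0.20 (SE 0.129), and -0.02 after GC adjustment.
MT-ND5 was at 4464 and 4894 TPM in the DMSO libraries and 3554 and 4127 in the 2-CM libraries, or -0.29, and MT-ND6, the mRNA of the other strand, at 4249 and 5071 against 3665 and 3993 TPM, or -0.28.
These 3 had the smallest separation in complex I, and after GC adjustment MT-ND5 (0.04) and MT-ND6 (0.17) were on the other side of 0.
Use of strand by the authors' quantification is not given in the sources used here, so reads of MT-ND6 and of RNA from the opposite strand cannot be told apart.

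**Figure D2:**
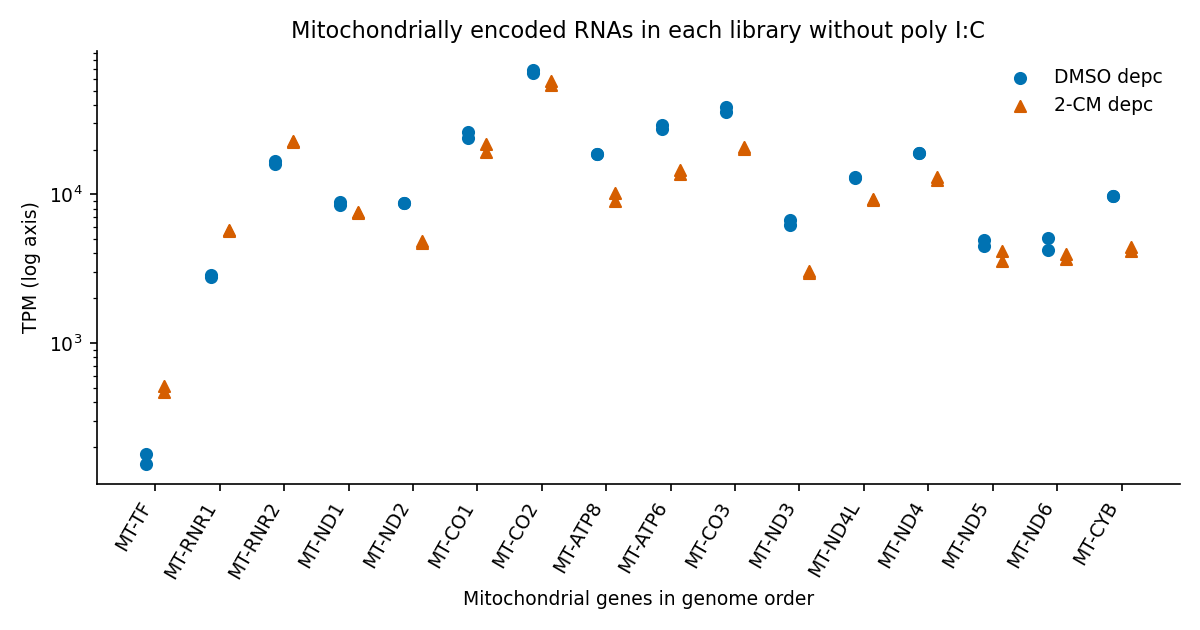
TPM on a log axis of the mitochondrial mRNAs, rRNAs and MT-TF in each of the 4 libraries without poly I:C, with genes in genome order along the horizontal axis. The 2-CM points lie above the DMSO points for MT-TF, MT-RNR1 and MT-RNR2 and below them for the 13 mRNAs.

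Set against the distance from the start of MT-TF, the difference had a Spearman correlation of -0.61 over the 14 heavy-strand mRNAs and rRNAs, and -0.38 over the 12 mRNAs alone.
The correlation was thus smaller without the step from the rRNAs to the mRNAs, and the part of that step in the decline was not measured. MT-CO1 and MT-CO2 stood nearer to DMSO than MT-ND2, which precedes them.
The adenine content of the 13 mRNAs had a Spearman correlation of -0.38 with the difference, and their GC content one of 0.34.
These points share their libraries, and neighbouring genes share precursors, so no p-value is given.
Of the 22 mitochondrial tRNAs, 10 lay below DMSO in both 2-CM libraries and 5 above, where all genes had 32.2% and 25.2%, with a median of -0.35. The 14 on the plus strand had 7 below and 2 above, with a median of -0.40. The 8 on the minus strand had 3 below and 3 above, with a median of 0.17. The limits given for MT-TF (shorter than a read) and MT-ND6 (use of strand) hold for the tRNAs as well.
After GC adjustment 2 of the 22 lay below and 6 above, with a median of 0.37, where all genes had 25.6% and 27.2%.

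**Figure D3:**
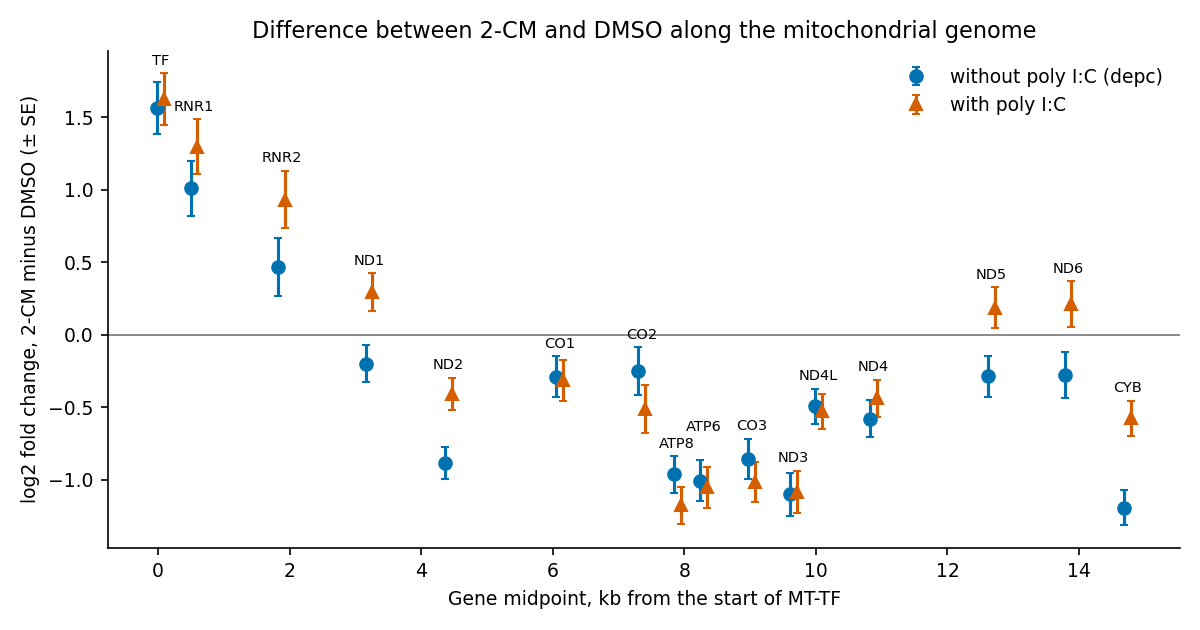
Log2 fold change of 2-CM against DMSO with its SE (vertical axis) for each mitochondrial mRNA, rRNA and MT-TF by the distance of the gene's midpoint from the start of MT-TF in kilobases (horizontal axis), without poly I:C (circles) and with poly I:C (triangles, drawn slightly to the right). Values are before GC adjustment. MT-TF and the rRNAs lie above 0 in both, from 1.56 and 1.62 for MT-TF downward, and MT-ATP8 to MT-ND3 lie below 0 in both.

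The mitochondrial mRNAs carried 24.6% and 25.7% of all TPM in the DMSO libraries and 17.2% and 16.9% in the 2-CM libraries.
The mean share of TPM on mitochondrially encoded mRNAs was lower with 2-CM, with a difference of -8.10 percentage points, or -4.16 as a share of estimated bases, at 25.1 ± 0.821% (SD, n = 2) for DMSO and 17.04 ± 0.217% for 2-CM, and the two-sided exact permutation test gave p = 0.333, the smallest that 2 against 2 allows.
The share on the rRNAs was 1.92 ± 0.0712% with DMSO and 2.83 ± 0.0141% with 2-CM.
The rRNA to mRNA ratio was 0.0802 and 0.0727 in the DMSO libraries and 0.165 and 0.167 in the 2-CM libraries. These rRNA values are those of polyadenylated RNA, so the share and ratio need not be those of all rRNA.
RES without poly I:C, the other compound, left 22.3% and 25.2% on the mRNAs. Its rRNA share was 3.12% and 2.98%, above both 2-CM libraries at 2.84% and 2.82%. The rRNA to mRNA ratio with RES was 0.140 and 0.118, so a higher rRNA share was not particular to 2-CM.

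The libraries with poly I:C, none of which are among the 4, gave a second measurement of the same compound.
There 10 of the 13 mRNAs did not overlap and stood lower with 2-CM, against 6.49% of all genes, and the median was -0.51 where that of all genes was 0.59.
MT-ATP8 was called lower, with a log2 fold change of -1.18 (limma adjusted p = 0.0395), and MT-TF higher, with 1.62 (adjusted p = 0.0395), among only 2 genes called higher (0.0137%) and 3 lower (0.0206%) in that contrast.
Before GC adjustment MT-ND1, MT-ND5 and MT-ND6 stood higher with 2-CM there, at 0.30, 0.18 and 0.21, and after it they were at -0.32, -0.64 and -0.78.
All 13 mRNAs were then below 0, with a median of -1.31, while MT-TF was at 0.50, MT-RNR1 at 0.52 and MT-RNR2 at -0.06.
The mRNA share was 27.6 ± 2.996% with DMSO and 17.7 ± 0.658% with 2-CM.
The difference of the 2-CM effect between the transfections was called in 0 genes (0%) by limma, and reached an unadjusted p under 0.05 in 4271 (29.3%) and in 4 of the 13 mRNAs.
By median-of-ratios scaling the higher share of those unadjusted differences moved from 94.4% to 58.2%.
For MT-CYB the log2 fold change was -1.19 without and -0.58 with poly I:C, a difference of 0.62 beside a median of 0.66 over all genes (limma adjusted p = 0.166), and after GC adjustment the order turned, with -0.95 and -1.30.

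Nuclear copies of mitochondrial genes followed their originals.
MTATP6P1, a nearly complete copy on chromosome 1, was at 6123 and 6377 TPM in the DMSO libraries and 3082 and 2891 in the 2-CM libraries, or -1.07 (SE 0.124, limma adjusted p = 0.0601), MTND2P28 had a log2 fold change of -0.87, and MTCO3P12 of -0.96.
They are close to identical to the mitochondrial genes, so which locus their reads came from is uncertain.

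Among nuclear genes of mitochondrial RNA metabolism the data showed less.
POLRMT, the polymerase itself, was at 34.8 and 41.5 TPM in the DMSO libraries and 44.3 and 58.6 in the 2-CM libraries, a log2 fold change of 0.41 (SE 0.3002), a gap no larger than the spread between the 2-CM libraries.
ADK, the adenosine kinase, was at 26.9 and 17.2 TPM in the DMSO libraries and 13.3 and 4.61 in the 2-CM libraries, or -1.33 (SE 0.682, adjusted p = 0.693), with replicates apart in both groups.
Of 28 genes of mitochondrial transcription and RNA turnover, 1 (3.57%) reached an unadjusted p under 0.05, near the 2.39% of all genes that were lower, and the median was -0.28, or 0.07 after GC adjustment.
That gene was MTERF1, a factor that binds a termination site next to the rRNAs, at 4.63 and 4.11 TPM in the DMSO libraries and 2.30 and 0.850 in the 2-CM libraries (-1.12, and -0.44 after GC adjustment).
The values for TFAM, which packages mitochondrial DNA, were 11.3 and 6.31 and 5.40 and 3.05 TPM, and for LRPPRC, which stabilises mitochondrial mRNAs, 40.7 and 26.4 and 18.5 and 14.0, with unadjusted p-values above 0.05 (-0.90 and -0.98).
The most abundant members by TPM were MRPL12 (0.31), HSD17B10 (0.36) and SLIRP (0.06), of which MRPL12 is a ribosomal protein that binds POLRMT and SLIRP the partner of LRPPRC.
Of 78 nuclear-encoded respiratory chain subunits, 3 reached an unadjusted p under 0.05, all higher (NDUFB9, NDUFA2 and ATP5MF), a share of 3.85% that is near the 2.85% of all genes that were higher, with a median of 0.10 beside -0.58 for the mitochondrially encoded ones, or 0.18 beside -0.22 after GC adjustment.
NDUFB9, of complex I, was at 737 and 698 TPM in the DMSO libraries and 1024 and 950.1 in the 2-CM libraries (0.46).
The highest TPM in that list belonged to COX8A (0.50), COX4I1 (0.07) and ATP5F1B (-0.10), subunits of cytochrome c oxidase and of the ATP synthase.
Of 78 mitochondrial ribosomal proteins, 2 did, MRPL52 (0.51) and MRPL53 (0.42), both higher, with a median of 0.07, or 0.19 after GC adjustment, and MRPL41 (0.41) and MRPS24 (0.41) were among the most abundant.
The 13 mitochondrial chaperones and proteases had none and a median of -0.02 before and after GC adjustment, with TRAP1 (0.16), HSPE1 (-0.15) and HSPD1 (-0.71) at the highest TPM.

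Protein-coding genes with long genomic spans stood lower with 2-CM, step by step with the span from the first to the last exon.
This grouping was chosen after the values had been seen.
The median log2 fold change was 0.24 in 2303 genes under 10 kb, 0.05 in 3437 genes of 10 to 30 kb, -0.26 in 4011 of 30 to 100 kb, -0.51 in 1816 of 100 to 300 kb, -0.74 in 239 of 300 to 500 kb and -0.90 in 104 genes over 500 kb.
In the last class 103 of 104 genes were below 0, and both 2-CM libraries lay below both DMSO libraries in 91.3%, beside 8.21% in the shortest class and 32.2% of all genes tested.
An unadjusted p under 0.05 with a lower level was reached by 54 of the 104, and by 67 of the 239, beside 2.39% of all genes, while none of either class reached it with a higher level.

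The order of the classes was found in each pairing of a 2-CM with a DMSO library, with medians of -0.99, -0.59, -1.17 and -0.78 for genes over 500 kb.
The DMSO replicates differed by 0.39 in that class and the 2-CM replicates by 0.14, and both replicate differences also followed span, from -0.05 and -0.10 under 10 kb to 0.14 and 0.02 at 10 to 30 kb, after which they stayed at 0.39 to 0.43 and 0.14 to 0.16.
Their Spearman correlations with span were 0.38 and 0.25 in size, with a sign that depends only on which replicate is subtracted.
RES against DMSO had -0.16 in genes over 500 kb and 0.14 under 10 kb.
After GC adjustment the medians ran from 0.12 to -0.60, and the Spearman correlation of span with the difference over 11910 genes went from -0.56 to -0.42.
Among the 3 equal classes of GC content, the lowest went from -0.30 under 10 kb to -0.98 over 500 kb, the middle from 0.07 to -0.81, and the highest from 0.34 to -0.07 at 100 to 300 kb, beyond which it held few genes.
With poly I:C the medians were 0.23 under 10 kb, 0.90 at 100 to 300 kb and 0.26 over 500 kb, and after GC adjustment -0.09, 0.05 and -0.57.

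**Figure D4:**
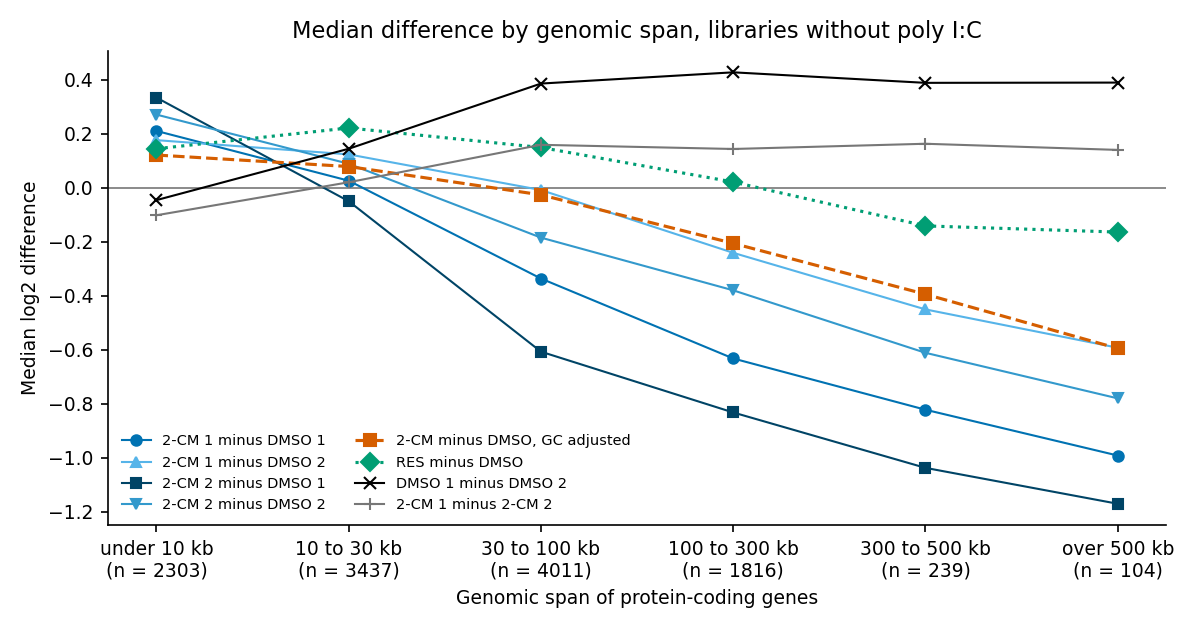
Median log2 difference (vertical axis) of protein-coding genes in 6 classes of genomic span (horizontal axis, with the number of genes) for each pairing of a 2-CM with a DMSO library, for the GC-adjusted comparison, for RES minus DMSO and for the replicates of each group. All 4 pairings decline from above 0 under 10 kb to between -0.59 and -1.17 over 500 kb, and the replicate differences climb up to 30 to 100 kb and then stay level.

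Position within the gene was compared in 7741 genes with 5 or more exons, whose coverage was split into the first, middle and last exons by order.
In 77 genes over 500 kb the medians of these parts were -0.60, -0.78 and -0.69, and under 10 kb they were 0.30, 0.27 and 0.23.
In the 178 genes of 300 to 500 kb they were -0.49, -0.60 and -0.63.
The first exons of long genes stood lower as well, by somewhat less than the others. Shorter genes had the same order, with first and last parts at -0.13 and -0.23 in genes of 30 to 100 kb. With poly I:C the first part lay below the last, at 0.16 and 0.24 in genes of 300 to 500 kb. No GC adjustment was made for these parts.

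Of the 25 genes called lower after GC adjustment, 20 spanned over 100 kb and 19 over 300 kb, where all genes tested held 15.97% and 2.62%.
Fitting the 4 libraries alone with GC adjustment called 2 genes, both higher, and adding the replicate number to the GC-adjusted fit left 4, so this set depends on the fit.
PCDH15, a protocadherin, had a GC-adjusted log2 fold change of -1.67 (-2.34 unadjusted) and spans chr10:53802771-55627942, minus strand.
The adhesion receptors TENM2 and TENM3, of the teneurin family, had -1.43 and -1.31, SDK1, a sidekick cell adhesion molecule, -1.41, and PTPRM, a receptor tyrosine phosphatase, -1.32.
PRKCA, the alpha form of protein kinase C, had -0.93, SEMA5A, a semaphorin, -1.06, and GPC6, a glypican, -1.06. With poly I:C, before GC adjustment, PCDH15, TENM3, PRKCA and SEMA5A were at 0.22, 0.22, 0.13 and 0.67. TENM2, SDK1, PTPRM and GPC6 were at -0.38, -0.65, -0.28 and -0.33 there, where the median of all genes was 0.59.
The calls without a long span were PTGDS (-1.30), a prostaglandin D synthase, IGFBP4 (-0.80), DUSP2 (-0.99), OSBPL5 (-0.68) and MALAT1 (-1.55), a nuclear long non-coding RNA.
C3, the central complement component (0.83), and HAPLN1 (0.90) were the 2 called higher. C3 was higher still with RES, at 18.9 and 21.7 TPM, a log2 fold change of 1.48 against DMSO before GC adjustment.
Before GC adjustment HAPLN1 was at 7.96 and 4.21 TPM in the DMSO libraries and 6.99 and 6.24 in the 2-CM libraries, which overlap, with a log2 fold change of 0.15, and it was at -0.37 with voom.

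The 12 protein-coding genes with the lowest p-values among those lower with 2-CM, and with enough expression and separated replicates, included 5 mitochondrial mRNAs and 6 genes that span over 300 kb.
FHIT, a diadenosine triphosphate hydrolase that covers the fragile site at chr3:59747277-61251459, minus strand, was at 5.24 and 5.70 TPM in the DMSO libraries and 0.583 and 1.08 in the 2-CM libraries.
It was 6.56 times lower on average, and the log2 fold change of -1.83 (SE 0.203, limma adjusted p = 0.0601) became -1.38 after GC adjustment.
With poly I:C it was -1.89 (limma adjusted p = 0.0395), and it was called there.
TENM2 (chr5:167284799-168264157, plus strand) was at 33.1 and 30.4 TPM in the DMSO libraries and 10.3 and 11.9 in the 2-CM libraries, or -1.44 (SE 0.214, limma adjusted p = 0.143).
SDK1 (chr7:3301252-4269000, plus strand) was at 7.37 and 7.13 TPM in the DMSO libraries and 2.32 and 2.72 in the 2-CM libraries, or -1.23 (SE 0.182, limma adjusted p = 0.143).
In all 3 genes the gap between the groups was many times that between replicates.
SND1, a staphylococcal nuclease domain protein, was at 160.03 and 173 TPM in the DMSO libraries and 90.1 and 94.1 in the 2-CM libraries (-0.85).
FARS2, the mitochondrial phenylalanine tRNA synthetase, was at 23.0 and 20.9 TPM in the DMSO libraries and 12.1 and 9.41 in the 2-CM libraries (-0.97).
FGGY, a carbohydrate kinase, was at 14.2 and 15.2 TPM in the DMSO libraries and 7.70 and 6.32 in the 2-CM libraries (-0.98).
The groups overlapped in none of these genes, since the choice required it.

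The 12 genes chosen in the same way among those higher with 2-CM included 0 that spanned over 100 kb, where 15.97% of all genes tested did.
None of them passed the adjusted threshold.
AP1M1, a subunit of an adaptor complex for clathrin, was at 28.5 and 32.4 TPM in the DMSO libraries and 118 and 82.1 in the 2-CM libraries (1.66), with the 2-CM replicates apart.
KRT81, a hair keratin, was at 7.26 and 8.28 TPM in the DMSO libraries and 22.3 and 21.4 in the 2-CM libraries (1.38), with close replicates.
CEBPD, a transcription factor of the acute-phase response, was at 30.9 and 26.9 TPM in the DMSO libraries and 52.9 and 63.7 in the 2-CM libraries (0.98), and C3, the complement component, at 6.70 and 6.55 against 12.8 and 14.3 TPM (0.93).
SOCS3, a feedback inhibitor of cytokine signalling, had a log2 fold change of 1.01, IL32, a cytokine, 0.78, and ICAM1, an adhesion molecule for leukocytes, 0.68.
CRYGC, a crystallin, was at 5.28 and 5.69 TPM in the DMSO libraries and 12.9 and 12.9 in the 2-CM libraries (1.10).
CENPV was at 56.7 and 56.4 TPM in the DMSO libraries and 93.6 and 105 in the 2-CM libraries (0.80), and ALKBH2, TRIM14 and RCOR2 had 0.69, 0.95 and 0.91.
With poly I:C, AP1M1, IL32, KRT81 and C3 were at -0.31, 0.01, -0.03 and 0.11, and ICAM1, SOCS3 and CEBPD at 0.89, 0.80 and 0.58, where the median of all genes was 0.59.

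Several targets of inflammatory signalling stood higher with 2-CM.
Of 14 tested targets of NF-kB, the factor that drives many cytokine genes, 5 (35.7%) reached an unadjusted p under 0.05, all higher, beside 5.23% of all genes and 2.85% higher, with a median of 0.32, or 0.38 after GC adjustment, beside -0.10 and 0.01 for all genes.
NFKB2, which encodes a subunit of that factor, was at 41.3 and 49.6 TPM in the DMSO libraries and 72.95 and 78.9 in the 2-CM libraries (0.73, SE 0.223).
ICAM1 was at 33.9 and 35.8 TPM in the DMSO libraries and 59.3 and 53.6 in the 2-CM libraries, and TNFAIP2 at 20.9 and 21.2 against 34.3 and 35.2 TPM (0.70).
RELB (0.71) and LIF (0.57) were the other two, and NFKBIA, the inhibitor that NF-kB induces, had 0.23.
RES against DMSO had larger differences in these genes, 1.15 for NFKB2 and 1.55 for ICAM1.
Among 23 tested of 39 interferons and interferon-induced genes, 3 (13.04%) reached it, all higher, and the median was -0.08, or 0.18 after GC adjustment.
These were IRF7, a factor that amplifies interferon production (4.25 and 4.60 against 8.12 and 10.7 TPM), ISG15, a ubiquitin-like modifier (73.8 and 98.5 against 128 and 173), and IFI6 (68.5 and 78.4 against 101 and 120.3). ISG15 and IFI6 were higher with RES too, at 0.69 and 1.04 against DMSO, beside 0.80 and 0.58 with 2-CM. With poly I:C the 2-CM effect in ISG15 and IFI6 was 0.05 and 0.10, where the median of all genes was 0.59.
BST2, a tether of enveloped viruses and the most abundant of the list, had 0.26.
MX1, an antiviral GTPase, was at 14.0 and 13.8 against 14.8 and 14.3 TPM, a difference of 0.07.
Of 9 tested genes that sense double-stranded RNA or relay its signal none reached it, the median was -0.07, or 0.08 after GC adjustment, and IRF3 (0.41), ADAR (0.06) and MAVS (-0.07) had the highest TPM.
IFIH1, which senses long double-stranded RNA, was at 2.55 and 1.53 against 1.80 and 1.55 TPM (-0.17), and EIF2AK2, the kinase PKR, at 8.85 and 5.02 against 3.46 and 2.35 (-0.99, and -0.34 after GC adjustment).
Of 16 tested AP-1 and immediate early genes, KLF2 (0.68), IER3 (0.56) and JUNB (0.80) reached it, all higher (18.75%, beside the same 5.23% of all genes), with a median of 0.19 and 0.05 after GC adjustment, beside the abundant JUND (0.45), MYC (-0.23) and FOSL1 (0.26).

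Of 14 keratins, the intermediate filaments of epithelial cells, 6 were tested, of which KRT8, KRT18, KRT80 and KRT81 were above 1 TPM in every library.
These 4 stood higher with 2-CM in both libraries, beside 25.2% of all genes. Of the 4, 3 reached an unadjusted p under 0.05, KRT8 (0.45) not, where 2.85% of all genes did so and stood higher. The median of the 6 tested, with KRT7 and KRT17 below included, was 0.67, or 0.46 after GC adjustment.
KRT18, the main simple-epithelium keratin here with KRT8, was at 1009 and 1069 TPM in the DMSO libraries and 1448 and 1571 in the 2-CM libraries (0.54).
KRT80 was at 15.5 and 15.1 TPM in the DMSO libraries and 25.97 and 24.9 in the 2-CM libraries (0.69).
KRT7 (0.80) and KRT17 (0.64) passed the filter only through the 2-CM libraries, since both DMSO libraries were under 1 TPM, so a higher value was built into their being tested.
In matrix genes the 3 of 24 that reached it (12.5%, beside 2.39% of all genes that were lower) stood lower, and the median was -0.12, or -0.16 after GC adjustment.
Among them were LAMA3, a laminin chain, at 5.18 and 4.24 against 2.86 and 2.97 TPM (-0.54), and COL5A1, a fibrillar collagen chain, at 73.7 and 71.8 against 48.0 and 56.6 (-0.47).
The matrix genes with the highest TPM were FN1 (0.01), COL18A1 (-0.10) and ITGA3 (0.06), for fibronectin, a basement membrane collagen and an integrin.
The fluid secretion genes, through which salivary cells move water and ions, had 2 of 12 higher, 1 of them (KCNN4) tested only through its 2-CM values, and 1 lower by the same measure, beside 5.23% of all genes, and a median of 0.01, or -0.04 after GC adjustment.
AQP3, a water channel, was at 6.63 and 5.75 TPM in the DMSO libraries and 10.6 and 12.6 in the 2-CM libraries (0.81), and ITPR1, a calcium release channel of the endoplasmic reticulum, at 2.87 and 2.13 against 0.925 and 1.05 (-0.81), and KCNN4, a potassium channel, had 0.42.
Of the same list SLC4A2, an anion exchanger, and STIM1, a calcium sensor, were among the most abundant, at 0.29 and -0.20.

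In stress and growth programmes few members had low p-values, where 5.23% of all genes were under 0.05.
Of 29 tested genes of ATF4 and amino acid stress, a response often seen when mitochondria are impaired, CHAC1 (6.71 and 7.91 against 13.3 and 17.8 TPM, 0.99) and PPP1R15A (0.64) reached an unadjusted p under 0.05, and the median was 0.19, or 0.18 after GC adjustment.
The abundant members, with roles in amino acid transport and serine metabolism, were SLC3A2 (0.32), SLC7A5 (0.07) and SHMT2 (0.40).
DDIT3, the factor CHOP of that response, was at 29.0 and 26.05 TPM in the DMSO libraries and 30.2 and 22.8 in the 2-CM libraries (-0.07).
Of 20 chaperones and unfolded protein response genes of the endoplasmic reticulum, MANF stood lower (133 and 109 against 94.7 and 73.4 TPM, -0.52), and the median was -0.38, or -0.15 after GC adjustment, with the abundant CALR (-0.13), HSP90B1 (-0.80) and PDIA6 (-0.37).
Of 80 tested cytosolic ribosomal proteins 5 reached it, all higher, or 6.25% beside 2.85% of all genes that were higher, with a median of 0.15 and 0.28 after GC adjustment.
Both 2-CM libraries lay above both DMSO libraries in 36 of the 80 and below them in 0, beside 25.2% and 32.2% of all genes, and RPS10 was at 1362 and 1472 TPM in the DMSO libraries and 2634 and 2711 in the 2-CM libraries (0.92).
The others were RPL13A (0.31), RPS21 (0.35), RPL12 (0.34) and RPS29 (0.45), and the most abundant RPL13 (0.62), RPS16 (0.30) and RPLP0 (0.50). When the mitochondrial genes were left out of the scaling, the median of the 80 was 0.01, with 42 above 0 and 38 below. That of all genes was then -0.22. With poly I:C the median of this list was -0.26, where that of all genes was 0.59.
None of 24 mitosis genes reached an unadjusted p under 0.05, with a median of -0.56 that became -0.02 after GC adjustment. CDC20 (0.13), UBE2C (0.25) and AURKB (0.15) had the highest TPM.
None of 24 tested DNA replication genes did either, with medians of -0.21 and -0.07, and MCM7 (0.13), MCM2 (0.26) and CDT1 (0.31) were the most abundant.
Among 22 tested genes of adenosine uptake and metabolism, AK4, a mitochondrial adenylate kinase, stood lower, at 31.6 and 21.0 TPM in the DMSO libraries and 8.94 and 15.2 in the 2-CM libraries (-1.08), and SLC29A1, the main nucleoside transporter, was at 102 and 104 against 132 and 144 (0.41), with APRT (0.47), AHCY (0.27) and NT5C (0.32) as the most abundant members.
Of the hypoxia, cholesterol, NRF2, aryl hydrocarbon receptor, histone and small nucleolar RNA host lists, the members with an unadjusted p under 0.05 were ANGPTL4 of 15 hypoxia targets, TM7SF2 of 23 cholesterol genes, OSGIN1 of 17 NRF2 targets, CYP1A1 of 7 aryl hydrocarbon receptor genes, HIST1H1E and HIST1H2BL of 41 histones and SNHG9 of 25 hosts of small nucleolar RNAs, all higher, with values from 0.57 to 0.94, of which HIST1H1E was tested only through its 2-CM values.
Most members of some of these lists lay the other way, with 12 of 15 hypoxia targets, 16 of 23 cholesterol genes and 4 of 7 aryl hydrocarbon receptor genes below 0. By median-of-ratios scaling 8, 12 and 4 of them were below 0.
The medians were -0.21 for hypoxia, -0.24 for cholesterol, 0.13 for NRF2, -0.26 for the aryl hydrocarbon receptor, 0.06 for histones and 0.04 for hosts of small nucleolar RNAs, and after GC adjustment -0.06, -0.10, 0.06, -0.05, 0.04 and 0.28.
The abundant members of these lists were P4HA2 (-0.08), ADM (-0.15) and BNIP3 (-0.17) for hypoxia, and FDPS (0.09) and EBP (0.16) for cholesterol.
For NRF2 they were FTL (0.31), FTH1 (0.01) and PRDX1 (0.11), and for the aryl hydrocarbon receptor CYP1B1 (-1.06), AHRR (0.23) and ARNT (-0.26).
For histones they were HIST1H1C (0.06), HIST1H2BK (-0.13) and HIST2H2AA4 (0.28), and for hosts of small nucleolar RNAs SNHG29 (-0.09), GAS5 (-0.09) and SNHG1 (0.01).
Glycolysis, cytosolic heat shock proteins and actin filaments had 0 members with an unadjusted p under 0.05 by limma.
Their abundant members were GAPDH (0.26), ALDOA (0.22) and ENO1 (0.15), HSPB1 (0.45), HSPA8 (-0.08) and HSP90AB1 (0.01), and ACTB (0.10), ACTG1 (0.13) and VIM (0.10).
MALAT1 alone of 4 tested nuclear long non-coding RNAs did, at 136 and 80.2 TPM in the DMSO libraries and 23.4 and 23.3 in the 2-CM libraries (-2.12), while NEAT1, TUG1 and NORAD had -0.08, -0.57 and -0.94. The median of these 4 was -0.76, or -0.26 after GC adjustment. With poly I:C, before GC adjustment, MALAT1 was at 1.36, where the median of all genes was 0.59.

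**Figure D5:**
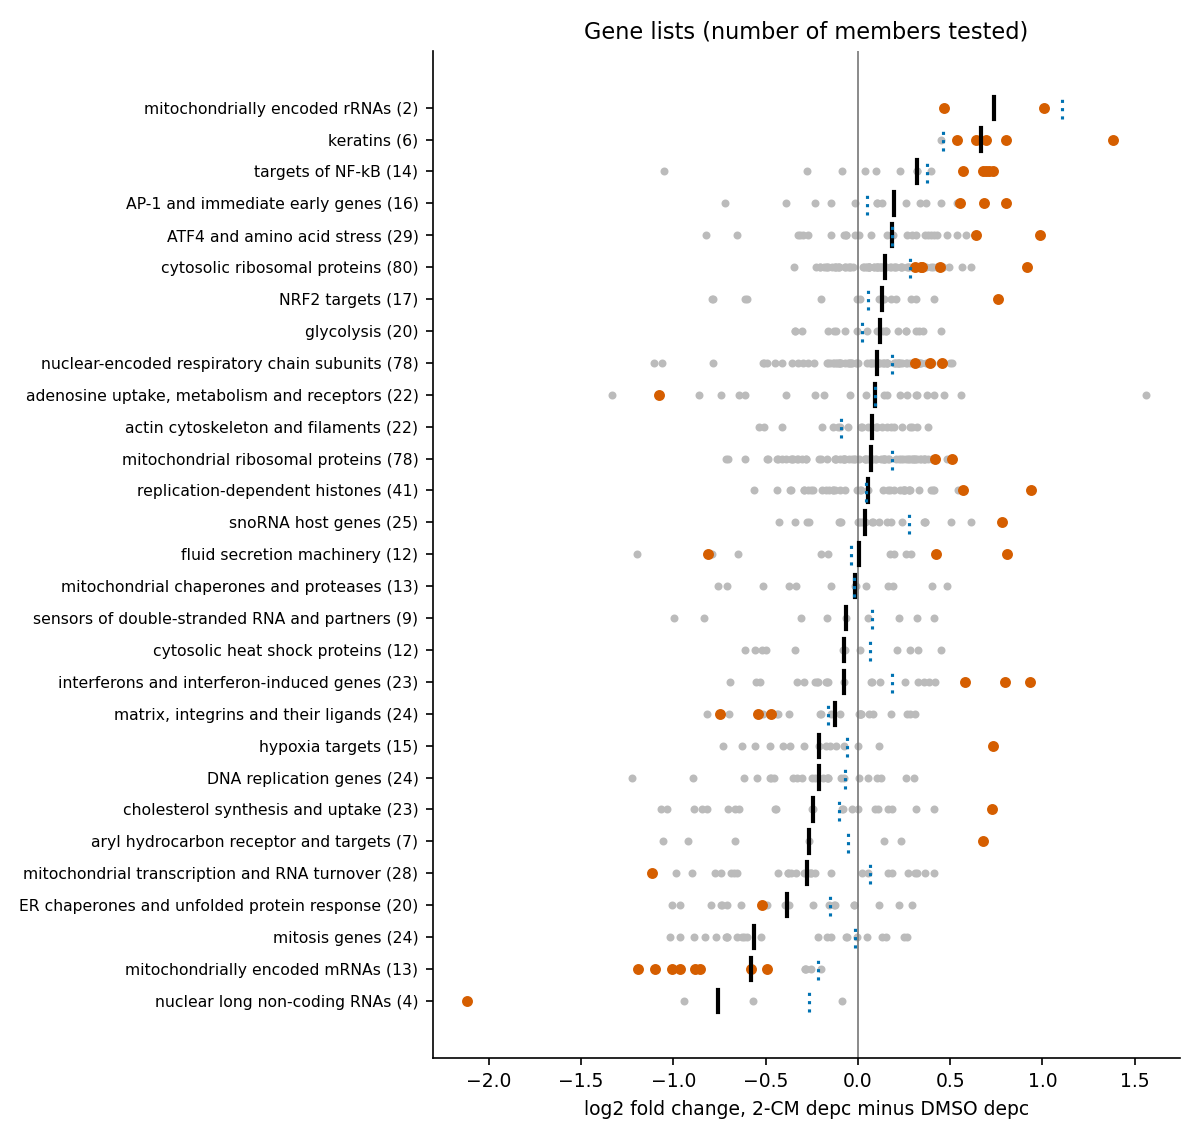
Log2 fold change of 2-CM depc against DMSO depc (horizontal axis) for each tested member of the gene lists (rows, with the number tested). Orange points have an unadjusted p under 0.05, grey points do not, black bars are the list medians and dotted blue bars the medians after GC adjustment. The mitochondrial rRNAs (median 0.74) lie at the top, and the mitochondrial mRNAs (median -0.58) and nuclear long non-coding RNAs at the bottom.

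The list medians depend on the scaling, since median-of-ratios scaling moved the median of all genes by 0.15 and leaving out the mitochondrial genes by -0.12.
Over TPM and 5 other scalings, 16 of 37 lists and marker lists had medians on both sides of 0, among them the interferon-induced genes (-0.17 to 0.02), respiratory chain subunits (-0.03 to 0.29), matrix genes (-0.26 to 0.06) and secretion genes.
Mitochondrial mRNAs (-0.58 to -0.39, over 4 other scalings, since they cannot enter the one that leaves them out), mitosis genes (-0.70 to -0.39), NF-kB targets (0.23 to 0.47) and ATF4 genes (0.05 to 0.37) kept 1 sign. GC adjustment is not among these scalings. After it the medians of these lists were -0.22, -0.02, 0.38 and 0.18, so that of the mitosis genes was close to 0.

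The compounds were compared directly without poly I:C, as 2-CM minus RES, with the spread estimated over all 12 libraries, those of DMSO included.
Limma called 26 genes higher (0.178%) and 28 lower (0.192%) with 2-CM, and after GC adjustment 1065 higher and 1118 lower.
Of the mitochondrial mRNAs, MT-CYB was lower than with RES, at -0.93 (limma adjusted p = 0.0314) and MT-ATP8 at -0.93 (limma adjusted p = 0.0332), while MT-TF was higher, at 1.64 (limma adjusted p = 0.0195).
The RES libraries held 7798 and 8411 TPM of MT-CYB, and 157 and 156 of MT-TF. Neither rRNA was called, with MT-RNR1 at 0.63 and MT-RNR2 at -0.24. MT-RNR2 was at 27095 and 26517 TPM in the RES libraries, above the 22778 and 22474 with 2-CM.
FHIT (-1.83, limma adjusted p = 0.0195) and SDK1 (-1.21, limma adjusted p = 0.0419) were lower with 2-CM, with RES at 5.30 and 5.59 TPM for FHIT. The long genes TENM2 and FGGY were not called here, and RES against DMSO was lower in them too, at -0.99 and -0.83.
CRYGC (2.19, limma adjusted p = 0.0195), CEBPD (1.33, limma adjusted p = 0.0455) and CYP1A1 (1.64, limma adjusted p = 0.0496), a cytochrome induced through the aryl hydrocarbon receptor, were higher. Against DMSO, 2-CM was at 1.10, 0.98 and 0.68 in CRYGC, CEBPD and CYP1A1, and RES at -1.09, -0.35 and -0.97. A lower level with RES was thus part of each of these differences.
For other called genes 2-CM and DMSO were close and RES stood apart, as in PLK1, a mitotic kinase (117 and 115 TPM with DMSO, 139.7 and 139 with 2-CM, 25.8 and 30.0 with RES), and DDIT3 (152 and 112 with RES).
The 2 RES libraries lay far apart, and the count was 0 without either 2-CM depc library, either DMSO depc library, either 2-CM poly I:C library or RES depc replicate 1, and 11 to 29 without the others.
It was also 0 when only the 2-CM depc and RES depc libraries were fitted.
Median-of-ratios scaling gave 13 higher and 3 lower, upper-quartile scaling 13 and 2, and leaving out the mitochondrial genes 13 and 36.

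Beside MT-TF, 3 genes were called when the 4 libraries were fitted alone, of which AL121900.2 and MIR4444-2 passed the filter only through the 2-CM libraries, where they are high, so that their direction was fixed by the choice.
AC023509.1 was at 3.60 and 3.05 TPM in the DMSO libraries and 85.8 and 49.4 in the 2-CM libraries, and it lies over PCBP2 and PRR13 on the same strand, so its reads are uncertain.
AL121900.2, which lies over DTD1 and SMIM26, was at 0 and 0 TPM in the DMSO libraries and 8.44 and 10.96 in the 2-CM libraries, and listed at 0 in all 4 libraries of these compounds with poly I:C.
MIR4444-2 was at 0 and 0 TPM in the DMSO libraries and 5.18 and 3.53 in the 2-CM libraries.

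The labelled cell type was checked against marker lists.
Of 18 salivary acinar markers only BHLHA15, the secretory cell factor MIST1, passed the filter, at 0.539 and 1.31 TPM in the DMSO libraries and 2.69 and 1.82 in the 2-CM libraries, and 14, among them the amylases and AQP5, were listed at 0 in all 4 libraries.
Of the epithelial keratins KRT8 and KRT18 were high, with KRT8 at 1292 and 1425 TPM in the DMSO libraries and 1761 and 1958 in the 2-CM libraries. KRT19 was listed at 0 in all 4 libraries, and KRT7 did not exceed 2.16 TPM. EPCAM and CDH1, the usual epithelial surface proteins, did not exceed 0.346 and 0.474 TPM.
SCNN1A, a sodium channel subunit of ducts, was at 251 and 254 TPM in the DMSO libraries and 179.5 and 214 in the 2-CM libraries, and 2 of 8 duct markers passed the filter.
Of 7 fibroblast markers 5 passed, with COL1A1 at 64.6 and 70.8 against 84.9 and 100.3 TPM, and their summed level was 144 and 129.5 TPM with DMSO and 147 and 157 with 2-CM. COL1A1 was the only 1 of the 5 above 0. The other 4 were below, and the median was -0.16, or 0.06 after GC adjustment.
Of 8 leukocyte markers 2 passed, CD14 and CD68, with sums of 10.2 and 11.5 TPM against 16.7 and 20.4, and 5 were listed at 0 in all 4 libraries.
Their part in the results above was not tested.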

How the data were processed

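Polyadenylated RNA of NS-SV-AC cells was sequenced as stranded paired-end reads of 101 bases. The authors used bcl2fastq 2.20, HISAT2 2.1.0, StringTie and DESeq2 with hg38, per the submitters' processing notes, and StringTie 2.0.4 with GENCODE 32 limited to annotated transcripts, per the file headers. Each deposited file holds a transcript annotation whose attributes give coverage, FPKM and TPM per transcript, other values than counts, per the file headers. TPM divides by length and sums to the same total in each library, so one abundant class lowers all others, and FPKM scales to the aligned bases.

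Transcript TPM was summed to genes in Python 3.11.15. A gene was kept where at least 2 of the 4 libraries reached 1 TPM. In R 4.3.3, limma 3.58.1 fitted 6 group means to log2(TPM + 1) over all 12 libraries (6 residual degrees of freedom, with a prior of 2.58 in the median). Two-sided p-values were adjusted by Benjamini and Hochberg's method over all genes of a contrast, and calls were made under 0.05. GC adjustment subtracted a lowess curve (span 0.3) on exonic GC content from the log2 values of each library. The curve was fitted to the library's differences from each gene's mean over all 12 libraries. Reads were estimated as coverage times length over read length. Code was tested on simulated data. Gene coordinates and spans came from the deposited files, gene types from GENCODE 44, by identifier, and sequences from GRCh38.

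Named genes were, in each direction, the 12 protein-coding genes with the lowest p among those whose higher group averaged at least 5 TPM, with separated replicates and at most 10% of exonic bases shared with another expressed gene, plus the 3 members of each list with the highest TPM, POLRMT, ADK and the 13 mitochondrial mRNAs. No gene was called, so the text also names list members with an unadjusted p under 0.05 and a few others, chosen after their values were seen. The genes, lists and rules were chosen with earlier results of these data known. Some genes that the rule names are not reported here. Tables of the authors' own comparisons were not used here. Alternatives are given at the end.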

Additional observations from a re-analysis of the deposited data

How the results depend on the processing

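Without poly I:C, 0 genes were called for 2-CM against DMSO. The count was 6 with the filter applied over all 12 libraries, 6 with a pseudocount of 0.1, 10 with a TPM minimum of 5 (9 lower and 1 higher, 8 of them mitochondrial genes or copies), 97 with no filter, 27 with GC adjustment, 4 with only the groups compared, 2 with those and GC adjustment, and 1 without the RES libraries. Leaving out single libraries gave 0 to 1. FPKM, upper-quartile and median-of-ratios scaling, voom and leaving out the mitochondrial genes gave 0. The difference of the 2-CM effects, 0 genes, became 2 with the filter over 12 libraries, 3 with GC adjustment, 55 with no filter, 1 with only the groups compared, 17 with those and GC adjustment, 1 without the RES libraries, and 0 to 1 with single libraries left out. For 2-CM against RES, 54 genes became 103 with the filter over 12 libraries, 24 with FPKM, 2183 with GC adjustment, 16 with median-of-ratios and 15 with upper-quartile scaling, 147 with no filter, 83 with a TPM minimum of 5, 0 with only the groups compared, 3 with those and GC adjustment, and 0 to 29 with single libraries left out. Replicate numbers only name the samples. With the replicate block the counts were 0, 0 and 16, with the block and GC adjustment 4, 1 and 2034, and with the block in a fit of only the groups compared, which leaves few residual degrees of freedom, 4455, 6626 and 154. The pairing check, a correlation of replicate 1 minus 2 between DMSO depc and 2-CM depc, gave 0.43, and other pairs of groups ran from -0.83 to 0.80. The difference in the share of TPM on mitochondrially encoded mRNAs, -8.10 points, was -4.16 as a share of estimated bases and -7.19 with the rRNAs included. The median of genes over 500 kb, -0.90, was -0.60 with GC adjustment, alone, with the block or in a fit of only the groups compared, -1.21 with voom and -1.19 with a pseudocount of 0.1. Of 5008 values of 180 genes under 28 alternatives, 4674 kept their direction and side of the threshold, 189 became called and 145 changed sign in 44 genes. In all 3 GC-adjusted fits alike these were SLC7A5 (-0.19), HIST1H1C (-0.13), ITGA3 (-0.13), ACTB (-0.12), ACTG1 (-0.086), CDC20 (-0.060), MCM7 (-0.058), FDPS (-0.025), TRAP1 (-0.0094), MRPL12 (-0.00062), HSPA8 (0.026), ARNT (0.033), MT-ND5 (0.035), HSPE1 (0.050), DDIT3 (0.062), ATP5F1B (0.068), P4HA2 (0.12), MT-ND6 (0.17), MT-TL1 (0.27), NEAT1 (0.29), GAS5 (0.38) and IFIH1 (0.44). With median-of-ratios scaling they were BNIP3 (0.0025), ADM (0.025), HSPE1 (0.037), HIST1H2BK (0.049), CALR (0.058), ATP5F1B (0.081), COL18A1 (0.088), SNHG29 (0.091), GAS5 (0.093), NEAT1 (0.096), P4HA2 (0.11), HSPA8 (0.11), MAVS (0.11) and DDIT3 (0.11). Without the mitochondrial genes they were SNHG1 (-0.13), FTH1 (-0.13), HSP90AB1 (-0.13), FN1 (-0.12), SLIRP (-0.082), HIST1H1C (-0.080), ADAR (-0.079), ITGA3 (-0.078), COX4I1 (-0.070), SLC7A5 (-0.064), MX1 (-0.060), FDPS (-0.043), ACTB (-0.042), VIM (-0.033), PRDX1 (-0.024), MCM7 (-0.0095), ACTG1 (-0.0053) and CDC20 (-0.0051). Voom turned HAPLN1 (-0.37), ACTB (-0.030), SNHG1 (-0.029) and SNHG29 (0.0014). With single libraries left out, the genes that changed sign ran over these ranges: ADAR -0.060 to 0.17, ADM -0.43 to 0.13, AHRR -0.0062 to 0.47, ARNT -0.59 to 0.065, BNIP3 -0.50 to 0.16, COL18A1 -0.30 to 0.10, COX4I1 -0.063 to 0.20, DDIT3 -0.26 to 0.13, FN1 -0.15 to 0.17, FTH1 -0.030 to 0.049, GAS5 -0.34 to 0.16, HAPLN1 -0.24 to 0.54, HIST1H1C -0.046 to 0.16, HSP90AB1 -0.35 to 0.37, HSPA8 -0.54 to 0.38, HSPE1 -0.45 to 0.15, IFIH1 -0.41 to 0.078, ITGA3 -0.067 to 0.18, MAVS -0.16 to 0.025, MYC -0.60 to 0.13, NEAT1 -0.33 to 0.16, NFKBIA -0.021 to 0.47, PDIA6 -0.75 to 0.012, PRDX1 -0.083 to 0.31, SLIRP -0.16 to 0.27, SNHG1 -0.30 to 0.31, SNHG29 -0.52 to 0.34, VIM -0.076 to 0.29. The causes were not tested. With 2 libraries a group, a gene without a call was not shown to be equal.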
